A study of Mus musculus with 4 samples.

Results

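Brain blood vessels take iron from the blood, hold part of it and pass the rest to brain tissue, and 9 genes of that handling are described here out of 32285 genes in the count matrices: Fth1, Ftl1, Cp, Tfrc, Slc40a1, Heph, Ireb2, Aco1 and Hmox1. The 9 genes were chosen by name with results of these libraries in view, among them the venous and capillary diet responses. Their diet differences in endothelial-like cells as a whole and in the capillary-like and venous-like zones are therefore a description without a test. All mice were C57BL6, and the labels give no age or sex. Mice of the control group ate a control diet, and mice of the PLX5622 group ate a diet with PLX5622 at 1200 ppm, both for 1 month; PLX5622 inhibits the kinase CSF1R, on which microglia depend. Brains without meninges, cerebellum and olfactory bulbs were dissociated, CD31+ cells were sorted by flow cytometry, and each diet was sequenced as 2 libraries with the 10x Genomics 3′ v3.1 chemistry. Per the labels, 3 brains were shared by 2 samples; libraries and animals may therefore not match one to one, and p-values here measure only the spread between libraries.

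Ferritin, a shell built of heavy chains (Fth1) and light chains (Ftl1), stores iron, and the heavy chain oxidizes it on entry. The transferrin receptor (Tfrc) brings iron into the cell, ferroportin (Slc40a1) lets it out, and the ferroxidases ceruloplasmin (Cp) and hephaestin (Heph) oxidize the iron that leaves; heme oxygenase 1 (Hmox1) frees iron from heme. When iron is scarce, the iron regulatory proteins IRP1 (Aco1) and IRP2 (Ireb2) bind a hairpin called the iron-responsive element, which blocks translation when it lies in the 5′ UTR of ferritin or ferroportin mRNA and stabilizes the mRNA when it lies in the 3′ UTR of Tfrc. Brain capillary endothelium is known for high transferrin receptor, the route by which transferrin-bound iron reaches the brain.

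The hairpins are shown because Fth1 and Ftl1, the ferritin chains whose diet differences are set side by side later, carry nearly the same one. The pattern searched was C, 5 bases, CAGTG, 1 base and 5 bases that pair with the first 5 (Watson-Crick or G with T), on the sense strand of GENCODE M21 transcripts (GRCm38). It occurred in 4 of the 9 genes and in 294 of 21901 protein-coding genes (1.342%). Capitals mark the CAGTG loop, and a match is a description of letters, not evidence of binding.
Fth1 5′ UTR, chromosome 19: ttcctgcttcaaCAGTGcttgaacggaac
Ftl1 5′ UTR, chromosome 7: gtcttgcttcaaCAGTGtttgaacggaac
Slc40a1 5′ UTR, chromosome 1: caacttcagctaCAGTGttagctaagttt
Tfrc 3′ UTR, chromosome 16, site 1: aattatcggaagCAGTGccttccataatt
Tfrc 3′ UTR, site 2: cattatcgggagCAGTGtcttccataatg
Tfrc 3′ UTR, site 3: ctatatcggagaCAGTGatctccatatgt
Tfrc 3′ UTR, site 4: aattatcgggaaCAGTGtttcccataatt
The other 5 genes (Cp, Heph, Ireb2, Aco1 and Hmox1) had no match to this pattern in their annotated transcripts.

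The libraries held 11186648 and 38600208 UMIs (unique molecular identifiers, each 1 counted RNA molecule) on the control diet and 19044018 and 26949278 on the PLX5622 diet. Barcodes were kept from 1000 UMIs and 500 genes upward and up to 10% of UMIs from mitochondrial genes, which gave 14864 cells, from 1696 to 5509 per library, with a median of 3834 to 5921.5 UMIs. Pairs of libraries shared 1 to 6 kept barcodes. Of these cells 13665 were endothelial-like, 305 pericyte-like and 227 smooth muscle-like. Among the endothelial-like cells, clustered without the iron genes, 2382 were arterial-like, 5531 capillary-like and 1340 venous-like, and 4393 were placed in no zone. The names held against their markers: Bmx stood at 160 ± 16.2 CPM (UMIs scaled to 1000000 per library sum; mean ± SD, n = 4 libraries) in arterial-like cells and at 3.40 ± 1.72 in capillary-like cells, Slc38a5 was highest in venous-like cells at 307 ± 47.2, and Acta2 reached 10160 ± 938 in smooth muscle-like cells. Pericyte-like droplets expressed Vtn at 4365 ± 1145 CPM but also held endothelial RNA: the median share of UMIs from 12 endothelial markers was 1.88% to 2.21% per library, against 2.79% to 2.95% in endothelial-like and 0.0140% to 0.0224% in smooth muscle-like cells. Microglial RNA was low in the vessel cells. Over all endothelial-like cells, 9 and 10 of 12 microglia and macrophage markers were detected on the control diet. On the PLX5622 diet 6 and 6 were detected, and over all 4 libraries the 12 summed to 24.2 to 28.2 CPM. In venous-like cells 1 to 3 of 12 microglia and macrophage markers were detected per library, Csf1r, Cx3cr1, P2ry12 and Tmem119 were at 0 in all 4 libraries, and the 12 markers summed to 20.4 to 27.8 CPM.

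Across vessel cells the genes of storage, uptake and export were distributed unevenly, and each order below is a description, since the classes come from clusters of the same cells. Tfrc and Slc40a1 were high in capillary-like and venous-like cells and low in arterial-like and smooth muscle-like cells. Cp was high in pericyte-like and arterial-like and low in capillary-like cells, and Fth1 was highest in smooth muscle-like cells. All levels are CPM on library sizes scaled by the TMM method (trimmed mean of M values), given over 4 libraries.

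**Figure D1:**
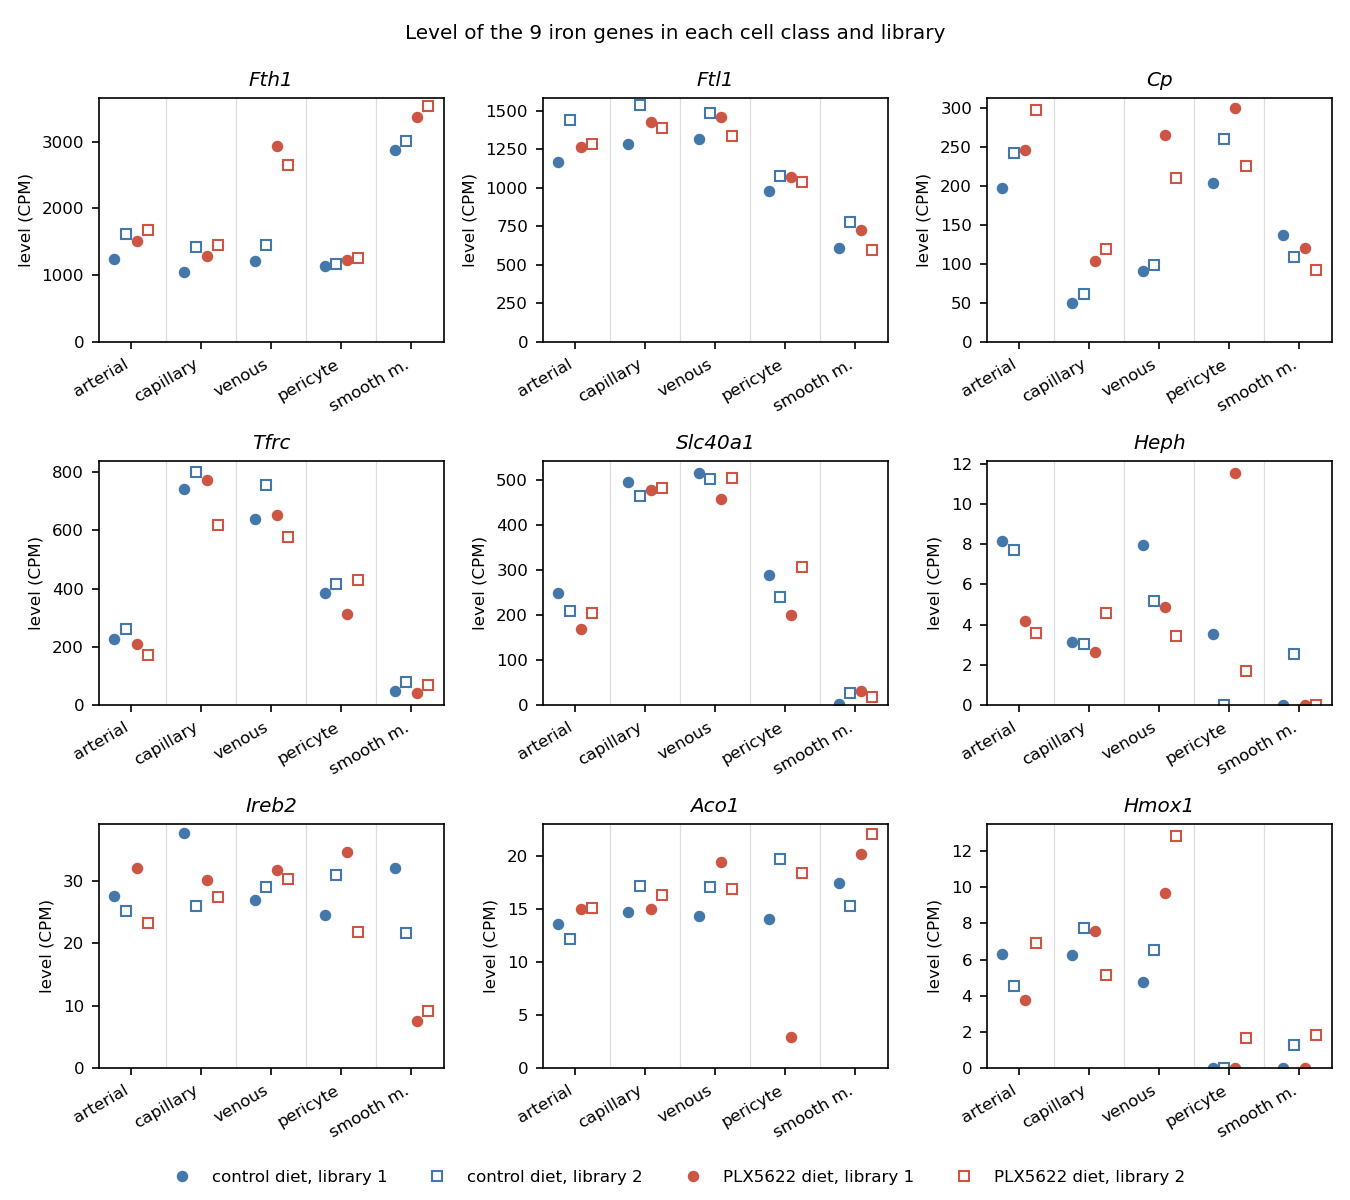
Level of each of the 9 genes (CPM, axis from 0) in arterial-like, capillary-like, venous-like, pericyte-like and smooth muscle-like cells; each point is 1 library, blue for the control diet and red for the PLX5622 diet, filled for library 1 and open for library 2. Fth1 in venous-like cells separates the diets (1216 and 1455 against 2930 and 2642 CPM), and Cp separates them in capillary-like and venous-like cells.

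Fth1, the ferritin heavy chain (chr19:9980598-9985098, GRCm38, plus strand), stood at 3197 ± 302 CPM in smooth muscle-like, 2061 ± 852 in venous-like, 1510 ± 190 in arterial-like, 1298 ± 185 in capillary-like and 1196 ± 53.0 in pericyte-like cells (mean ± SD, n = 4). Smooth muscle-like cells exceeded venous-like cells in 4 of 4 libraries, although the ranges overlapped; the venous level was wide because it differed by diet. With at most 5% mitochondrial UMIs only 6, 22, 11 and 14 smooth muscle-like cells remained in the 4 libraries, Fth1 in them was 2045 CPM, and venous-like cells were then highest at 2060. The first place of smooth muscle-like cells for Fth1 was thus not kept at this limit, where few of them remained.

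Ftl1, the ferritin light chain (chr7:45457944-45459884, minus strand), followed another order. It stood at 1408 ± 105 CPM in capillary-like, 1399 ± 84.7 in venous-like, 1289 ± 114 in arterial-like, 1042 ± 43.6 in pericyte-like and 678 ± 88.1 in smooth muscle-like cells. Capillary-like and venous-like cells did not differ beyond their spread (2 of 4 libraries in that order), while the range of smooth muscle-like cells lay below that of every other class. In the mural cells with under 0.5% of UMIs from endothelial markers, Ftl1 was 665 ± 58.7 CPM in pericyte-like and 671 ± 58.3 CPM in smooth muscle-like cells, so the lowest place of smooth muscle-like cells was not kept there. Reads of a processed copy are counted apart: Ftl1-ps1 held 4.49 to 10.7 CPM per class on average, and how the authors' counting split reads between such copies is not known.

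Tfrc, the uptake receptor (chr16:32608920-32632794, plus strand), had 734 ± 80.6 CPM in capillary-like, 656 ± 74.0 in venous-like, 386 ± 52.6 in pericyte-like, 217 ± 36.3 in arterial-like and 59.6 ± 17.6 in smooth muscle-like cells. Capillary-like cells exceeded venous-like cells in 4 of 4 libraries with overlapping ranges, and each lower class lay apart from the next. Slc40a1, the exporter ferroportin (chr1:45908068-45926523, minus strand), had 494 ± 25.7 CPM in venous-like, 479 ± 12.2 in capillary-like, 258 ± 48.3 in pericyte-like, 208 ± 33.0 in arterial-like and 19.3 ± 11.9 in smooth muscle-like cells. Over all cells of each class, the uptake receptor and the exporter thus shared the low arterial and the lowest smooth muscle level. Neither venous nor capillary was apart from the other for Slc40a1.

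The pericyte-like levels of both transporters moved with endothelial RNA. In the 93 of 305 pericyte-like cells with under 0.5% of UMIs from endothelial markers, Tfrc was 19.8 ± 14.3 CPM and Slc40a1 was 4.02 ± 8.05 CPM, with 0 in 3 of 4 libraries. In the same cells Fth1 was 740 ± 127 CPM and Ftl1 665 ± 58.7 CPM, also below the level over all pericyte-like cells. Cp went the other way, at 375 ± 51.5 CPM. Smooth muscle-like cells under the same limit held Tfrc at 51.3 ± 9.94 CPM and Slc40a1 at 4.73 ± 3.72 CPM. The lowest place of smooth muscle-like cells was thus not kept for Tfrc and Slc40a1 there.

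Cp, the ferroxidase ceruloplasmin (chr3:19957054-20009145, plus strand), had 248 ± 42.4 CPM in pericyte-like, 246 ± 41.0 in arterial-like, 166 ± 85.4 in venous-like, 115 ± 19.0 in smooth muscle-like and 83.5 ± 33.5 in capillary-like cells. Over all cells of each class, pericyte-like and arterial-like cells did not differ beyond their spread, and the ranges of all neighbours in this order overlapped. In the pericyte-like cells with under 0.5% of UMIs from endothelial markers, Cp was 328 to 420 CPM, from 16 to 52 UMIs per library. Arterial-like cells held 197 to 297 CPM, scaled together with all cells. Within the arterial zone Cp differed by cluster, with a control diet mean of 129 CPM (here per library total) in cluster 5, 291 in cluster 8, led by Gkn3, and 466 in cluster 11, led by Fbln5. Heph, the membrane-bound ferroxidase related to Cp (chrX:96455359-96574485, plus strand), was sparse: 411 UMIs in all endothelial-like cells, 5.89 ± 2.35 CPM in arterial-like, 5.36 ± 1.88 in venous-like and 3.35 ± 0.85 in capillary-like cells, and 6 and 2 UMIs in all pericyte-like and smooth muscle-like cells.

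The iron regulatory proteins were near level across classes. Ireb2 (IRP2; chr9:54863789-54912530, plus strand) ranged from 30.3 ± 5.18 CPM in capillary-like to 17.6 ± 11.5 in smooth muscle-like cells, and the ranges of all neighbours in its order overlapped. Aco1 (IRP1, which is also the cytosolic aconitase; chr4:40143081-40198338, plus strand) ranged from 18.8 ± 2.98 CPM in smooth muscle-like to 13.8 ± 7.64 in pericyte-like cells, again with overlapping neighbours. Hmox1 (chr8:75093621-75100589, plus strand) was rare, with 8.46 ± 3.57 CPM in venous-like, 6.68 ± 1.21 in capillary-like and 5.38 ± 1.49 in arterial-like cells. Only 1 and 2 Hmox1 UMIs were counted in all pericyte-like and smooth muscle-like cells, and the mural levels of Hmox1 lay apart from the endothelial ones.

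The diet contrast asked what 1 month of PLX5622 did to each vessel class. Fth1 was 2.08-fold higher in venous-like cells and overlapped between diets in capillary-like cells, Cp was higher in both zones, and the other 7 genes lay close to their control levels in the capillary and venous zones, apart from the sparse Hmox1 and Heph. Differences below are log2 fold changes, PLX5622 minus control, ± standard error from edgeR's quasi-likelihood fit on counts summed per library and class (n = 2 libraries per diet). All 9 genes passed the filter on low counts in the endothelial classes, and 6 did in each mural class, where Heph, Aco1 and Hmox1 were too sparse.

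**Figure D2:**
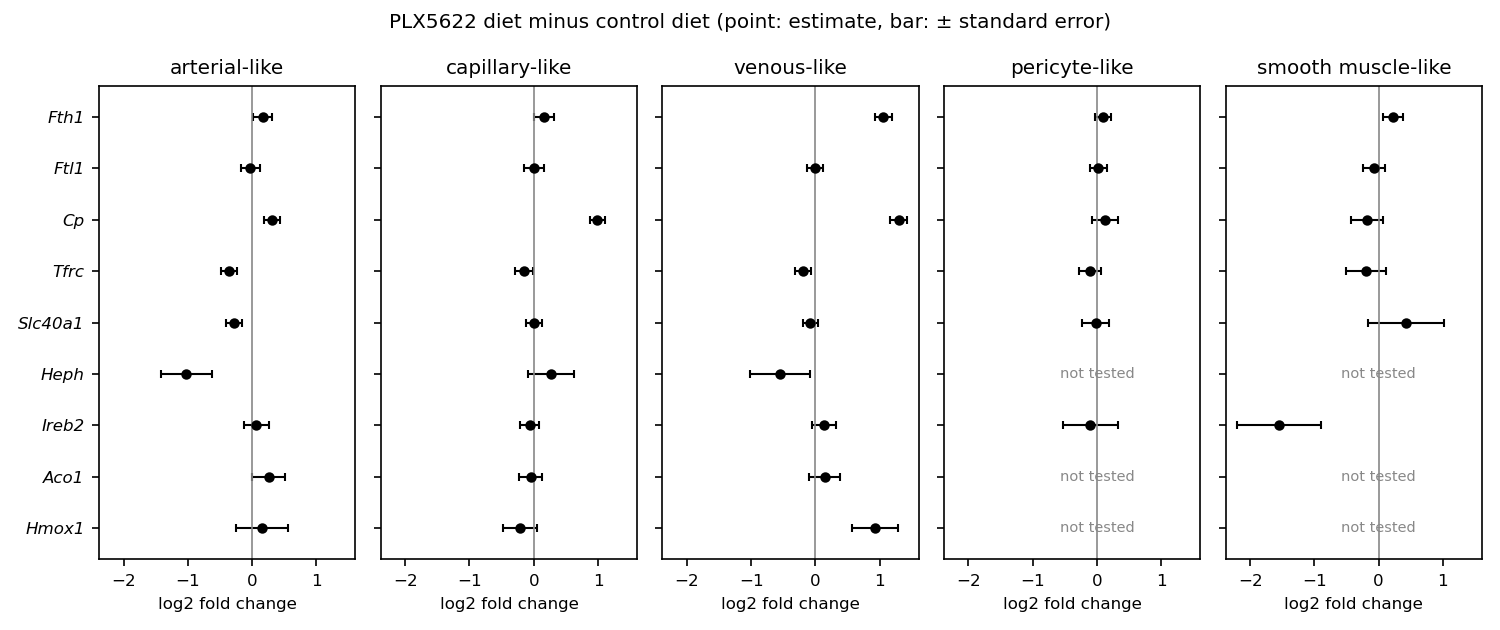
Diet difference of the 9 genes in each class: log2 fold change (PLX5622 minus control) on the horizontal axis, point for the estimate and bar for ± its standard error. Fth1 lies at 1.06 in venous-like cells and between 0.10 and 0.22 in the other 4 classes, and Cp lies at 0.99 and 1.30 in capillary-like and venous-like cells and at 0.30 in arterial-like cells.

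In venous-like cells Fth1 was 1216 and 1455 CPM on the control diet and 2930 and 2642 CPM on the PLX5622 diet, from 22974 UMIs. Both PLX5622 libraries lay above both control libraries, and the difference was 1.06 ± 0.13 (2.08-fold). In capillary-like cells Fth1 was 1041 and 1417 CPM against 1284 and 1449 CPM, and the diets overlapped (0.16 ± 0.15, from -0.04 without control replicate 1 to 0.39 without control replicate 2). The venous difference exceeded the capillary one by 0.91 ± 0.09 on the log2 scale in the zone-by-diet model.

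By the same fits, Cp in venous-like cells was 91.4 and 98.8 CPM on the control diet and 265 and 210 CPM on the PLX5622 diet (1.30 ± 0.13, 2.46-fold). In capillary-like cells Cp was 49.6 and 61.0 CPM against 104 and 119 CPM (0.99 ± 0.12, 1.99-fold). The diets did not overlap in either zone, and the venous difference exceeded the capillary one by 0.32 ± 0.21. That value was 0.06 without PLX5622 replicate 1, 0.16 without control replicate 2 and 0.64 without PLX5622 replicate 2, so single libraries set its size. Cp was thus higher in both zones and Fth1 in the venous one. In free RNA, from barcodes under 100 UMIs, Cp was 80.5 and 97.4 CPM on the control diet and 118 and 122 CPM on the PLX5622 diet. That lay above the capillary-like level in each library and also separated the diets. The part of free RNA in the capillary Cp difference was not tested.

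Ftl1, the partner chain of Fth1, lay within the range of its control libraries on the PLX5622 diet. It was 1318 and 1485 CPM against 1458 and 1335 CPM in venous-like cells (-0.01 ± 0.12) and 1281 and 1535 CPM against 1429 and 1389 CPM in capillary-like cells (0.01 ± 0.15). The diets overlapped in both, beside the 1.06 of Fth1 in venous-like cells.

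Uptake and export differed little. Tfrc in venous-like cells was 640 and 755 CPM on the control diet and 652 and 576 CPM on the PLX5622 diet (-0.19 ± 0.12), and in capillary-like cells 743 and 801 CPM against 774 and 618 CPM (-0.15 ± 0.14, from -0.32 without PLX5622 replicate 1 to 0.01 without PLX5622 replicate 2). Slc40a1 in venous-like cells was 516 and 501 CPM against 457 and 503 CPM (-0.08 ± 0.11), and in capillary-like cells 494 and 465 CPM against 478 and 481 CPM (0.01 ± 0.12). The diets overlapped for both genes in both zones. Heph rested on 57 venous-like and 99 capillary-like UMIs, with -0.55 ± 0.47 and 0.27 ± 0.36.

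Of the regulators, Ireb2 was 27.0 and 29.0 CPM against 31.8 and 30.4 CPM in venous-like cells (0.13 ± 0.19) and differed by -0.06 ± 0.15 in capillary-like cells. Aco1 differed by 0.14 ± 0.25 in venous-like and by -0.05 ± 0.18 in capillary-like cells, with overlapping diets in both. Hmox1 in venous-like cells was 4.77 and 6.53 CPM on the control diet and 9.71 and 12.9 CPM on the PLX5622 diet, from 99 UMIs (0.93 ± 0.35). The diets did not overlap there, while in capillary-like cells they did (6.28 and 7.72 against 7.57 and 5.15 CPM, -0.21 ± 0.27).

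Over all endothelial-like cells Fth1 was 1115 and 1482 CPM against 1556 and 1712 CPM (0.33 ± 0.15, or 0.15 without control replicate 1), and Cp was 100 and 119 CPM against 152 and 170 CPM (0.55 ± 0.10). At an adjusted p under 0.05 edgeR called 1 of 9 members (Cp) in endothelial-like cells, 1 of 9 (Cp) in capillary-like cells, 2 of 9 (Fth1 and Cp) in venous-like cells and 1 of 9 (Fth1) for the venous minus capillary difference. Of all genes tested, 1.09%, 1.31%, 1.07% and 0.116% were called in these comparisons; the members' shares are not read against them, since the members were chosen on these contrasts. The Fth1 call for the venous minus capillary difference was lost with limma-voom (0.92 ± 0.15). The Cp call in endothelial-like cells was lost without PLX5622 replicate 2 (0.47), and Fth1 was called there without control replicate 2 (0.53).

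The venous-like zone was made up of 2 of the 15 clusters of endothelial-like cells, and both showed the Fth1 difference (levels here per library total). In cluster 4, led by Wnt5a, Adh1 and Il1r1, Fth1 was 1075 and 1304 CPM on the control diet and 1972 and 1916 CPM on the PLX5622 diet. In cluster 13, led by Ackr1, Lrg1 and Lcn2, it was 6541 and 4975 CPM against 11710 and 9626 CPM, the highest Fth1 of the 15 clusters on either diet. Cluster 13 was small, with 4, 13, 24 and 24 cells, or 2.78%, 2.28%, 8.79% and 6.78% of venous-like cells. Without it the venous Fth1 difference was 0.72 ± 0.13 and the venous minus capillary difference 0.58 ± 0.07, and Cp was at 1.29 ± 0.13. The summed level of the 12 venous markers, which include the adhesion genes Vcam1, Icam1 and Selp, was also higher on the PLX5622 diet (2131 and 2098 CPM against 3337 and 3053 CPM); its part in the Fth1 difference was not tested.

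**Figure D3:**
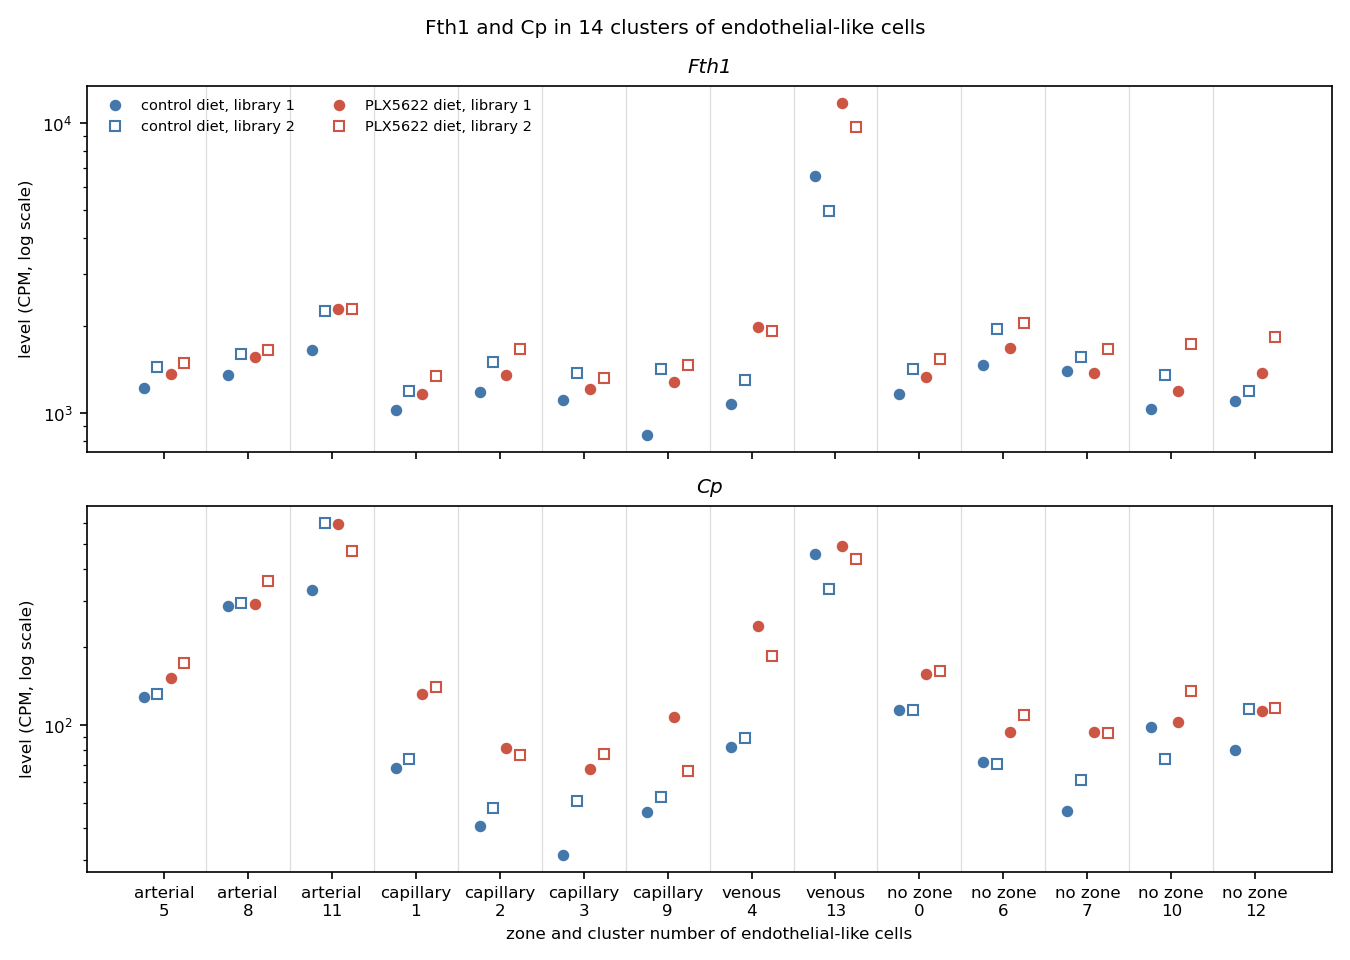
Fth1 and Cp in 14 of the 15 clusters of endothelial-like cells, ordered by zone, on a log axis (CPM per library total); each point is 1 library. Fth1 separates the diets in 4 clusters, with the widest ratios in the venous clusters 4 and 13 (1.63 and 1.85). Cp separates them in 10 clusters, including all 4 capillary ones. The share of all genes that do so in a cluster was not counted.

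The fenestrated-like cluster, with cells in the control libraries alone, is left out of the plot of clusters. Among the other 14 clusters both PLX5622 libraries exceeded both control libraries for Fth1 in 4: the venous clusters 4 and 13 with ratios of the diet means of 1.63 and 1.85, cluster 11 (1.17) and the hemoglobin-led cluster 12 (1.40). For Cp this held in 10 clusters, with ratios over all 14 from 1.12 to 2.48. Cp in cluster 13 was already high on the control diet (454 and 333 CPM against 490 and 436 CPM), and cluster 4 gave the highest ratio. Both PLX5622 libraries also lay above both control libraries for Hmox1 in 4 clusters, for Ftl1 and Aco1 in 2 each and for Heph in 1. For Tfrc, Slc40a1 and Ireb2 this held in 0 of 14 clusters. In the other direction, both PLX5622 libraries lay below both control libraries for Tfrc in 5 clusters (7, 8, 9, 11 and 12). The same was seen for Heph in 3, Slc40a1 and Ireb2 in 2 each, Ftl1, Aco1 and Hmox1 in 1 each, and Fth1 and Cp in 0. The clusters share the same 4 libraries. The share of all genes that separate the diets in a cluster was not counted, so these counts are a description. The Tfrc ratio was below 1 in 13 of 14 clusters, with 262 and 267 CPM against 207 and 163 CPM in the arterial-like cluster 8.

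Single cells were compared at equal depth by drawing 1000 UMIs from each. In cluster 4 the share of cells with at least 5 Fth1 UMIs was 2.14% and 1.80% on the control diet and 11.6% and 6.97% on the PLX5622 diet; undrawn, the share of cells with at least 0.5% of their UMIs from Fth1 was 0% and 0.18% against 6.02% and 3.94%. In capillary-like cells the share with at least 5 of the 1000 drawn UMIs was 1.01% and 2.19% against 1.94% and 2.52%, and the undrawn share 0.17% and 0.10% against 0.25% and 0.35%. The share of cluster 4 cells without any Fth1 among the 1000 UMIs was 32.9% and 29.3% against 21.7% and 19.4%. The diets were thus apart at the low end of cells as well as in the tail, while the median was 1 UMI in each library. In capillary-like cells the share without any Fth1 was 38.1% and 26.8% against 29.3% and 24.9%, wide between the control libraries and overlapping between diets. Free RNA, in barcodes under 100 UMIs, held Fth1 at 1851 and 1710 CPM on the control diet. On the PLX5622 diet it held 1853 and 2062 CPM, a smaller difference than in venous-like cells. The part of free RNA in the venous Fth1 difference was not tested.

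**Figure D4:**
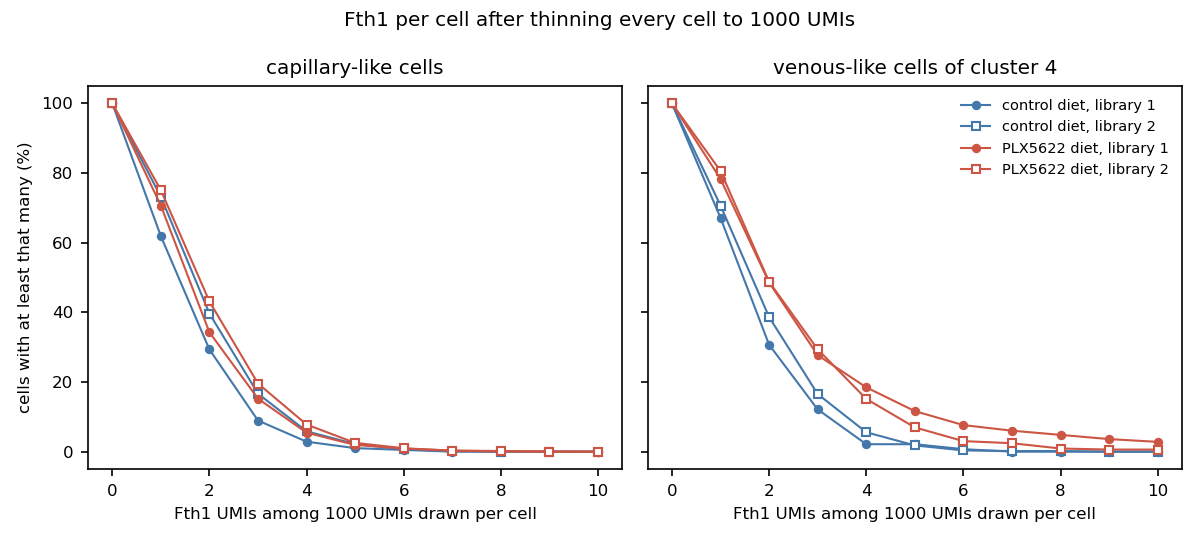
Share of cells (%) with at least a given number of Fth1 UMIs after every cell was thinned to 1000 UMIs, for capillary-like cells (left) and the venous-like cells of cluster 4 (right), 1 line per library. At 5 UMIs the venous lines stand at 2.14% and 1.80% (control) and 11.6% and 6.97% (PLX5622), while the capillary lines run together.

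In arterial-like and mural cells no member passed the test; arterial-like cells are also part of the endothelial-like cells compared above. In arterial-like cells edgeR called 0 of 9 members, against 0.812% of all genes tested. An unadjusted p under 0.05 was reached by 4 members and by 790 of all 10472 genes tested. DESeq2 and limma-voom also called 0 members. Cp was 197 and 243 CPM against 247 and 297 CPM (0.30 ± 0.12, edgeR adjusted p = 0.42), and it ran from 0.17 without PLX5622 replicate 2 to 0.47, then called, without control replicate 2. The arterial zone also differed in make-up: cluster 5, low in Cp, held 55.8% and 55.0% of it on the control diet and 47.4% and 43.5% on the PLX5622 diet, and cluster 8, high in Cp, 40.8% and 38.8% against 46.2% and 49.0%. Within clusters 5, 8 and 11 the ratios of the diet means of Cp were 1.26, 1.12 and 1.14, and the part of the make-up in the zone difference was not tested. Tfrc was 226 and 260 CPM against 209 and 173 CPM (-0.36 ± 0.12, edgeR adjusted p = 0.22), and it was called without control replicate 1 (-0.44) and with the highest doublet scores left out (-0.44). The diets did not overlap for Cp or Tfrc. Slc40a1 was 249 and 209 CPM against 169 and 203 CPM (-0.28 ± 0.12, edgeR adjusted p = 0.53), called without control replicate 2 (-0.41), and Heph was 8.13 and 7.69 CPM against 4.16 and 3.58 CPM from 98 UMIs (-1.02 ± 0.39, adjusted p = 0.34). Fth1 was 1240 and 1614 CPM against 1517 and 1669 CPM (0.16 ± 0.15, adjusted p = 0.90), with overlapping diets. The other members differed by -0.03 ± 0.15 (Ftl1, 1164 and 1440 CPM against 1264 and 1286 CPM), 0.07 ± 0.20 (Ireb2), 0.26 ± 0.26 (Aco1) and 0.15 ± 0.40 (Hmox1), with edgeR adjusted p of 0.92 to 0.99.

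The arterial difference was also set against the capillary one in the zone-by-diet model. The capillary response is among those on which the genes were chosen, so these values too are a description. EdgeR called 0 of 9 members and 0.196% of all genes. An unadjusted p under 0.05 was reached by 4 members and by 599 of all 11231 genes tested. DESeq2 and limma-voom called 0 members, and nothing is read from these counts. For Cp the arterial difference lay below the capillary one (-0.69 ± 0.19). Cp was called with a replicate block, without a filter on low counts and without control replicate 1, PLX5622 replicate 1 or PLX5622 replicate 2, with values from -0.73 to -0.66. For Fth1 the arterial minus capillary value was 0.02 ± 0.09, for Ftl1 -0.02 ± 0.07, for Tfrc -0.19 ± 0.08 and for Slc40a1 -0.25 ± 0.08. For Heph it was -1.29 ± 0.51, for Ireb2 0.10 ± 0.20, for Aco1 0.33 ± 0.27 and for Hmox1 0.41 ± 0.45.

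In mural cells, the pericytes and smooth muscle cells that wrap the vessel, edgeR called 0 of 6566 genes in pericyte-like and 0 of 6389 in smooth muscle-like cells (0% in both), members included; 347 and 291 genes had an unadjusted p under 0.05, and DESeq2 and limma-voom called 0 in both. Fth1 in smooth muscle-like cells was 2878 and 3012 CPM against 3369 and 3527 CPM (0.22 ± 0.15, edgeR adjusted p = 0.997). In pericyte-like cells Fth1 was 1143 and 1160 CPM against 1231 and 1252 CPM (0.10 ± 0.13, adjusted p = 0.99). Both PLX5622 libraries lay above both control libraries in each class, by less than 2 standard errors of the fit. In the pericyte-like cells with under 0.5% of UMIs from endothelial markers, Fth1 was 553 and 805 CPM against 830 and 772 CPM. The diets overlapped there, and the part of endothelial RNA in the pericyte-like differences was not tested. Ireb2 in smooth muscle-like cells was 32.0 and 21.7 CPM against 7.57 and 9.19 CPM from 36 UMIs (-1.55 ± 0.65, adjusted p = 0.997). Cp, higher in the capillary and venous endothelium, differed by 0.12 ± 0.20 in pericyte-like and by -0.18 ± 0.25 in smooth muscle-like cells. The other tested members differed in pericyte-like cells by 0.02 ± 0.13 (Ftl1), -0.11 ± 0.17 (Tfrc), -0.02 ± 0.21 (Slc40a1) and -0.11 ± 0.43 (Ireb2), and in smooth muscle-like cells by -0.08 ± 0.17 (Ftl1), -0.20 ± 0.31 (Tfrc) and 0.43 ± 0.59 (Slc40a1). These classes held 36 to 101 cells per library, and red cell RNA was uneven among them: hemoglobin and other erythroid markers summed to 15690 CPM in pericyte-like cells of PLX5622 replicate 2 and to 6256 CPM in smooth muscle-like cells of control replicate 2, against 11.8 to 196 CPM in the others.

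Around the 9 genes stand 71 others of iron and heme handling, NRF2-driven defence and lipid peroxide control, drawn up with earlier results of these data known. The calls and adjusted p-values of these genes below are therefore a description, not support. Of the 71, 59 were tested in endothelial-like cells, 55 in arterial-like, 55 in capillary-like and 53 in venous-like cells. EdgeR called 3 higher and 0 lower in endothelial-like cells, 2 higher and 0 lower in capillary-like, 3 higher and 0 lower in venous-like cells, and 0 in arterial-like and mural cells. Over all genes tested 95 were called higher and 45 lower (1.09%), 114 and 37 (1.31%) and 78 and 30 (1.07%) in these 3 sets, which lean the same way. The median log2 fold change of the list was 0.05, 0.06 and 0.03 in endothelial-like, capillary-like and venous-like cells, beside 0.00 over all genes tested in each. In arterial-like cells 6 of the list had an unadjusted p under 0.05, in pericyte-like 4 of 34 tested and in smooth muscle-like 0 of 29. Over all genes tested these counts were 790 of 10472, 347 of 6566 and 291 of 6389. DESeq2 and limma-voom called 0 of the list in these 3 classes.

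Lcn2, lipocalin 2, which binds iron-carrying siderophores and is an acute-phase gene, rose the most of the list. In venous-like cells it was 4.77 and 13.6 CPM on the control diet and 195 and 216 CPM on the PLX5622 diet (4.16 ± 0.18, edgeR adjusted p = 4.4e-18), and without cluster 13 the difference was 4.18. It also rose in capillary-like cells, from 1.26 and 0.953 CPM to 9.42 and 13.96 CPM (3.51 ± 0.36, adjusted p = 8.3e-09), and the venous and capillary differences were not shown to differ (0.65 ± 0.50, adjusted p = 0.97). Osgin1, a target of the stress factor NRF2, rose in capillary-like cells from 22.9 and 21.5 CPM to 40.3 and 38.8 CPM (0.85 ± 0.14, edgeR adjusted p = 0.00012). It was the 1 of 11 NRF2 targets called there, and it was also called over all endothelial-like cells (0.84 ± 0.12, adjusted p = 0.0014).

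Acsl4, which loads polyunsaturated fatty acids into lipids that can be peroxidized, rose in venous-like cells from 32.6 and 26.9 CPM to 49.1 and 48.6 CPM (0.78 ± 0.17, edgeR adjusted p = 0.013). That call was lost with DESeq2, without control replicate 2, PLX5622 replicate 1 or PLX5622 replicate 2, and without cluster 13 (0.45 ± 0.20). Over all endothelial-like cells Acsl4 rose by 0.56 ± 0.11 (edgeR adjusted p = 0.014), a call lost with DESeq2 and without control replicate 2. Alas1, the first enzyme of heme synthesis, rose in venous-like cells from 188 and 240 CPM to 302 and 294 CPM (0.45 ± 0.12, adjusted p = 0.049), a call lost in 8 of 16 alternatives. Both were the only calls of their lists in the venous zone, of 4 lipid peroxide genes and 15 heme genes.

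The remaining named genes of iron handling did not pass the test in any class. Ncoa4, the receptor that sends ferritin to lysosomes, was 145 and 155 CPM against 150 and 130 CPM in venous-like cells (-0.12 ± 0.12, edgeR adjusted p = 0.87). Pcbp1, a chaperone that loads iron into ferritin, was 234 and 279 CPM against 279 and 254 CPM (0.03 ± 0.12, adjusted p = 0.98). Fbxl5, which marks IRP2 for degradation, differed by 0.03 ± 0.19 (adjusted p = 0.99). Of the iron importers, Slc11a2 (DMT1) differed by 0.20 ± 0.27 and Slc39a8 (ZIP8) by -0.01 ± 0.12 in venous-like cells, and Slc11a2 by 0.48 ± 0.19 in capillary-like cells (edgeR adjusted p = 0.39). Trf, transferrin itself, was 3.42 and 2.64 CPM against 1.78 and 2.30 CPM in endothelial-like cells (-0.49 ± 0.28, adjusted p = 0.58). Bmp6, the endothelial signal that drives hepcidin in the liver, was 0.264 to 1.08 CPM in endothelial-like cells, and Slc39a14 (ZIP14) was too sparse to test in any class. Of 13 genes of mitochondrial iron and iron-sulfur assembly, 0 were called in any zone.

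The genes most like each member over the 20 sums of 5 classes by 4 libraries were found by Pearson's r of log2(CPM + 1) among 7785 genes, as a description of sums that share libraries and depth. Tfrc was most like Smox and Ndnf (r = 0.98 for both), Slc40a1 most like Add3 and Kank3 (0.99 for both) and Ftl1 most like Snx3 and Bnip3l (0.98 for both). Fth1 was most like Rpl10 and Spint2 (0.94 for both). Cp had no close partner: Itm2c and Ifitm2 led at 0.77 and 0.76. For the sparse or near-level members r was lower, with Rtcb and Senp3 for Heph (0.90 and 0.87), Rel and Pigk for Ireb2 (0.91 and 0.90), Coq9 and Pknox1 for Aco1 (0.87 and 0.86) and Dkc1 and Frmd4b for Hmox1 (0.88 for both).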

How the data were processed

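Each deposited matrix lists UMI counts, unnormalized whole numbers for every barcode, per the file headers and the values. The submitters' processing notes list Cell Ranger 6.0.1, Seurat 4.0, mm10 and mm39 without saying which build served what; the file headers name Cell Ranger 4, and the build and annotation behind the counts are not given in the sources used here. Members were matched by symbol; coordinates and transcripts are from GENCODE M21.

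Cells were clustered in Python 3.11.15 with igraph 0.11.9 and scikit-learn 1.9.0 (2000 variable genes, 30 and, for zones, 20 components, 15 neighbours, Leiden resolution 1), and named from marker lists. Iron, NRF2 and diet-response genes were kept out of the zone clustering. No doublet caller was available; an own score against simulated doublets left out the top 3% (507 cells) as an alternative. Counts were summed per library and class and fitted with edgeR 4.0.16 (R 4.3.3; quasi-likelihood, TMM, filterByExpr, Benjamini-Hochberg over all genes, two-sided at 0.05), with zone, diet and a library block for differences between zones. Alternatives used DESeq2 1.42.0, limma 3.58.1, other filters, scalings and cell sets. The fit was tested on simulated data.

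The members and lists were chosen with earlier results of these data known. The rule for named genes took the 9 members, the wider-list genes called in any fit as reported (not its alternatives), 9 of fixed name, and the 2 genes most like each member. No columns were left unused.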

Additional observations from a re-analysis of the deposited data

Results flagged for a closer look

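Fth1 differed in its diet response between zones: the venous-like minus capillary-like difference was 0.91 ± 0.09 on the log2 scale in edgeR's zone-by-diet model. The 9 genes were chosen with this contrast in view, so the value is a description. With 2 libraries per diet, no search for single deviating libraries was made.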

How the results depend on the processing

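Over the alternatives the venous difference of Fth1 ran from 0.72 to 1.17, and that of Cp from 1.12 to 1.49 in venous-like and from 0.81 to 1.17 in capillary-like cells. Calls of members in the contrasts that chose them are given as a description, not as support. Of 2017 values of named genes under alternatives, 1980 kept their side of the threshold, 17 lost it, 20 gained it, and 0 called values changed sign. Values that stayed uncalled count among the 1980, so that number does not measure how stable the calls were. Members called of 9 changed as follows. For venous minus capillary it was 1, but 0 with limma-voom and 1 to 2 leaving out a replicate. For arterial minus capillary it was 0, but 1 with no filter on low counts and 0 to 1 leaving out a replicate. In arterial-like cells it was 0, but 1 with the highest doublet scores left out and 0 to 2 leaving out a replicate, and in endothelial-like cells 1, but 0 to 2 leaving out a replicate.

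Replicate numbers were not treated as pairs: deviations of same-numbered libraries correlated at 0.18 over 6226 genes, with 2 pairs. With a replicate block, 1 member (Cp, -0.69) was called for arterial minus capillary, and all genes called went from 151 to 272 in capillary-like, 85 to 142 in arterial-like, 108 to 176 in venous-like and 0 to 2 in pericyte-like cells, 13 to 30 for venous minus capillary and 22 to 46 for arterial minus capillary; the block changed no other call of a member.

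All-gene counts moved by over 1.5 times elsewhere too. DESeq2 gave 20 in arterial-like, 61 in capillary-like and 50 in venous-like cells, 2 for venous minus capillary and 5 for arterial minus capillary. With no filter they were 346 in endothelial-like, 6 in pericyte-like and 14 in smooth muscle-like cells and 20 for venous minus capillary. With iron genes in the zone clustering they were 53 in arterial-like cells and 14 for arterial minus capillary. At most 5% mitochondrial UMIs gave 3 in pericyte-like, no high doublet scores 17 in smooth muscle-like, and mural cells low in endothelial RNA 3 and 7 in pericyte-like and smooth muscle-like cells. Without cluster 13, an alternative chosen after seeing the data, 5 were called for venous minus capillary. Leaving out a replicate gave 167 to 265 in endothelial-like, 31 to 166 in arterial-like, 83 to 190 in capillary-like, 82 to 208 in venous-like, 6 to 34 in pericyte-like and 1 to 144 in smooth muscle-like cells, 6 to 23 for venous minus capillary and 4 to 35 for arterial minus capillary. The cause was not tested. Depth limits Heph, Hmox1 and all mural values, and 2 libraries per diet limit every test.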
